A study of Mus musculus with 2 samples.

Results

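The genes described here encode subunits of the Polycomb and trithorax groups and the deubiquitinases that act on histone H2A besides Bap1. They were chosen by name: 35 symbols, each matched through its NCBI gene identifier to a row of both count tables, out of 36528 gene rows in all. All 35 were found.

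Polycomb repressive complex 1 (PRC1) places ubiquitin on histone H2A through its RING subunits, and Polycomb repressive complex 2 (PRC2) methylates H3K27 through Ezh1 or Ezh2. The H2A deubiquitinases, of which Bap1 is the catalytic subunit of a Polycomb-group complex, remove the H2A mark, the Kdm6 demethylases remove H3K27 methylation, and the MLL family enzymes of the trithorax group methylate H3K4. In the epidermis, PRC2 is known to hold back differentiation genes in proliferating basal keratinocytes, and the Ezh2 level is known to drop as keratinocytes leave the basal layer.

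Both libraries came from epidermal cells of C57BL/6 neonates at postnatal day 1. The library labelled wild type pooled 11 Rosa26-CreERT2 neonates, and the library labelled knockout pooled 9 Bap1 fl/fl Rosa26-CreERT2 neonates. Both groups carried the tamoxifen-activated Cre recombinase, which is expressed from the broadly active Rosa26 locus, and both cultures were grown in M254 medium with human melanocyte growth supplement. Both received 100 nM 4-hydroxytamoxifen (4-OHT) for 4 days and then 3 days of culture without it. About 6000 viable cells of each were loaded for droplet-based 3′ RNA sequencing with unique molecular identifiers (UMIs). With 1 library for each genotype there was no replicate, so no difference was tested. All intervals below are exact 95% intervals that cover counting error only, and genotype cannot be told apart from pool, culture and library. Values are given with the library labelled wild type first.

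The tables held 1926 and 1760 cells with 77579465 and 64954113 UMIs, and 1912 and 1738 cells were kept. Bap1 RNA stood at 14.0 and 19.6 UMIs per 1000000 UMIs of the same cells (CPM), so that the targeted gene was not lower in the library labelled knockout. A 3′ tag outside the deleted part would not show the deletion, and which part of Bap1 was deleted is not given in the sources used here. Barcodes are shared by 3 pairs of cells, 1 of each pair in each library. Of the kept cells, 1754 (91.7%) and 1597 (91.9%) fell into 6 keratin-rich clusters, in which the sums below were taken unless another class is named. Krt14, a keratin of basal keratinocytes, was at 5736 and 4598 CPM there. The 2 libraries filled these clusters unequally: cluster 0 held 889 and 81 cells, cluster 4 held 28 and 692, and cluster 6 held 5 and 298. A cluster that is nearly all of 1 library cannot be told apart from that library. Cluster 3, in which 29 of 46 G2 and M phase genes were at least 5-fold above the mean of the other clusters, held 139 and 19 cells. Marker lists of other cell types were not all low in the keratin-rich sums. The melanocyte list summed to 411 and 359 CPM against 71859 and 68429 CPM in the melanocyte-like cells. The Schwann list summed to 67.1 and 41.3 CPM, the myeloid list to 31.7 and 22.4 CPM and the fibroblast list to 30.8 and 13.2 CPM, with Col3a1 and Dpt at 0. The Merkel cell list summed to 4846 and 7720 CPM, nearly all of it Krt18 at 4529 and 7207 CPM, a keratin of simple epithelia. The skeletal muscle list summed to 216 and 526 CPM, most of it Acta1 at 188 and 501 CPM. The part of these differences in the values below was not tested.

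Most of the Polycomb and trithorax genes were at nearly the same level in the keratin-rich cells of both libraries. Of the 35 genes, 34 reached 100 UMIs over both libraries and were measured, and Rybp, an adaptor of variant PRC1, did not, with 14 and 7 UMIs. None of the 34 was at least 1.5-fold higher in the library labelled knockout, where 5.31% of 13025 measured genes were. Pcgf5, a subunit of variant PRC1, was the 1 gene below the same limit, against 14.0% of all measured genes. The log2 ratio of the library labelled knockout to that labelled wild type ranged from −0.82 for Pcgf5 to 0.48 for Kdm6b, an H3K27 demethylase. Its median was 0.15 over the 34 genes and 0.0022 over all measured genes, and its standard deviation was 0.28 and 0.62. In all, 24 genes had a ratio above 0 and 10 a ratio below 0. The counting interval lay above 0 for 19 genes (35.5% of all genes), below 0 for 6 (35.5%) and across 0 for 9 (29.0%). No cell gave more than 2.12% of a measured gene's UMIs in its library.

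**Figure D1:**
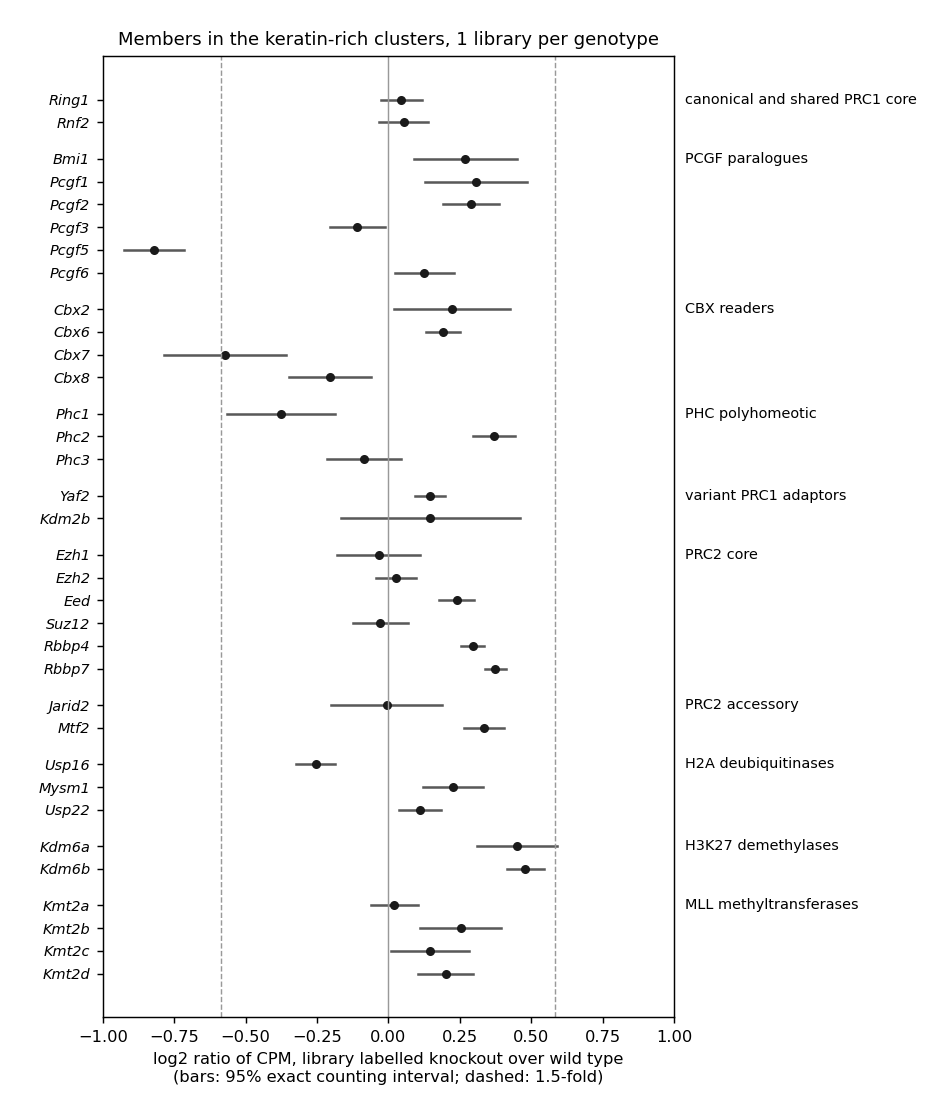
Log2 ratio of CPM in the library labelled knockout to that labelled wild type, on the x axis, for the 34 measured genes in the keratin-rich clusters, grouped by role on the y axis. Points are ratios, bars are exact 95% counting intervals, and the dashed lines mark 1.5-fold. Pcgf5 at −0.82 is the only point beyond them, with Cbx7 at −0.57 just inside.

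The catalytic subunits of PRC2 separated by cluster far more than by library. Ezh2, which carries most H3K27 methylation in dividing cells (chr6:47530274-47595270), was at 49.2 and 50.1 CPM over the keratin-rich cells, a log2 ratio of 0.03 (−0.04 to 0.10). Its paralogue Ezh1 (chr11:101191115-101226463), known for its use in non-dividing cells, was at 11.4 and 11.2 CPM, a ratio of −0.03 (−0.18 to 0.11). The 250 bases before the RefSeq transcript start of these genes and of Suz12 are shown because the levels of Ezh2 and Suz12 followed the cycling cluster and that of Ezh1 went the other way. They are from RefSeq on GRCm38.p6, on the gene's strand. Capitals mark CCAAT boxes, read as CCAAT or ATTGG, and E2F-type octamers, read as TTTCCCGC, TTTCGCGC, TTTGCCGC or TTTGGCGC on either strand. The windows lie at chr6:47595031-47595280 on the minus strand for Ezh2, chr11:101226464-101226713 on the minus strand for Ezh1 and chr11:79992856-79993105 on the plus strand for Suz12. The Ezh2 start used lies inside the annotated span of the gene given above, which reaches further upstream, and positions are counted from the start used.
Ezh2: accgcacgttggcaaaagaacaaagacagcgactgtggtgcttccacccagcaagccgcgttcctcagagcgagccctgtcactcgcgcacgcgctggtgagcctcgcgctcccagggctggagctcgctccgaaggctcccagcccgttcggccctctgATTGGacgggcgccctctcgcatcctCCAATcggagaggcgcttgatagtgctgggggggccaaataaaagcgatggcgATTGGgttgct
Ezh1: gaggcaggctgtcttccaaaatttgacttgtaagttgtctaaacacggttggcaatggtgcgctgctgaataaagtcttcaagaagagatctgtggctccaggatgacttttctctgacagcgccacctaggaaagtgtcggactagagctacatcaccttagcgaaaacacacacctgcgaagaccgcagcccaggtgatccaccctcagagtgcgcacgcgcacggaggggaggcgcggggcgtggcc
Suz12: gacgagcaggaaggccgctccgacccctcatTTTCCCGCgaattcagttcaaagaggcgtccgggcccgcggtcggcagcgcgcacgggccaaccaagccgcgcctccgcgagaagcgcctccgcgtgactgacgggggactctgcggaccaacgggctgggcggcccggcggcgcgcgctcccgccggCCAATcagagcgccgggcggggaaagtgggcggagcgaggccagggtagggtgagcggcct
The Ezh2 window held no octamer. It held 3 CCAAT boxes, at −90, −64 and −11 bases from the start, as 2.79% of 32851 mouse promoter windows did with 3 or more. The Suz12 window held 1 CCAAT box and the octamer TTTCCCGC at −219. The Ezh1 window held none of either. Of the 35 genes, 28 had at least 1 entry in the promoter table, with 37 windows, and Usp22, Yaf2, Kdm6b, Kmt2b, Pcgf1, Cbx2 and Rybp had none. A CCAAT box was in 13 of the 37 windows (35.1%) and in 33.8% of all windows, and an octamer was in 1 of 37 and in 1.86% of all. The CCAAT motif was chosen after the sequences were seen, and the genes shown were picked by their levels. Windows with a CCAAT box also belonged to genes of either direction, such as Pcgf5, which was higher in the cycling cluster, and Jarid2, which was lower there. A match describes letters in the window, not a site.

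Between clusters, Ezh2 was highest in cycling cluster 3, at 103 and 105 CPM, and lowest in cluster 1, at 20.5 and 18.2 CPM. The order of these clusters was thus the same in both libraries. Cluster 1 held 5 suprabasal and 1 basal keratinocyte marker at 5-fold or more and was led by Spink12, Sprr1a and Psca. Basal Krt14 was at 14802 and 15568 CPM in cluster 1, above its level over all keratin-rich cells (5736 and 4598 CPM). Krt10, a suprabasal keratin, was at 35.5 and 30.4 CPM in cluster 1 and at 34.8 and 32.2 CPM in cluster 0. How far the cells of cluster 1 had left the basal state was not tested. In log2 units Ezh2 in cluster 3 stood 1.26 (1.15 to 1.37) and 1.09 (0.82 to 1.35) above the other keratin-rich clusters of the same library. These cluster contrasts are a description, since the clusters were built from the same cells. Ezh1 ran the opposite way, at 5.45 and 6.81 CPM in cluster 3 and 16.3 and 16.6 CPM in cluster 1. Against the other keratin-rich clusters, Ezh1 in cluster 3 stood at −1.16 (−1.64 to −0.71) and −0.73 (−1.94 to 0.26) in log2 units. The interval of the library labelled knockout thus included 0. As a share of Ezh1 and Ezh2 UMIs together, Ezh1 made up 5.04% and 6.11% in cluster 3, and 44.3% (39.5 to 49.2) and 47.6% (41.6 to 53.7) in cluster 1. Over all keratin-rich cells the Ezh1 share was 18.9% and 18.2%.

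The equal Ezh2 level stood beside unequal levels of cell cycle genes. Of the 46 genes of the G2 and M phase list, 37 were below the 1.5-fold limit in the library labelled knockout and none was above it, with a median log2 ratio of −1.81. The largest ratios were −2.62 for Ttk, −2.41 for Nuf2 and −2.37 for Bub1, genes of the mitotic spindle and its checkpoint. The summed level of the list was 1318 and 770 CPM over the keratin-rich cells, and 7131 and 8244 CPM within cluster 3. Of 35 S phase genes, 15 were at least 1.5-fold lower and none higher, with a median of −0.48, led by Clspn at −2.34, Prim1 at −1.94 and Cdc6 at −1.91, genes of DNA replication and its control. Mki67, a proliferation marker, was at 5.21 and 1.17 CPM, and the topoisomerase gene Top2a at 29.4 and 5.80 CPM. The Ezh2 level differed with the clusters that entered the sum: without clusters 0, 4 and 6, where 1 library held under 10% of the cells, its log2 ratio was −0.53. Without cluster 3 it was 0.20. Within cluster 2, where the libraries held 396 and 305 cells, Ezh2 was at 45.5 and 38.2 CPM, a ratio of −0.25 (−0.42 to −0.09). The part that the cell cycle and the cluster mix have in these values was not tested.

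**Figure D2:**
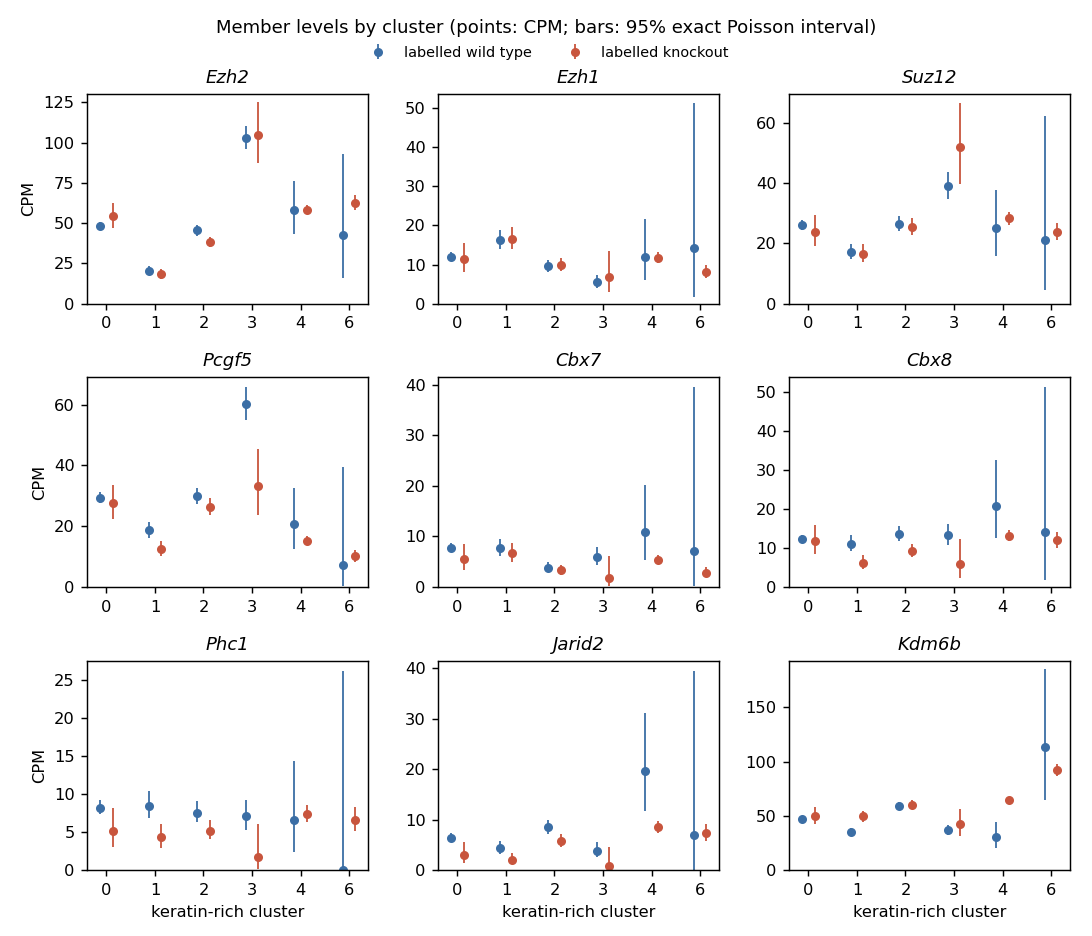
CPM of selected genes, on the y axis of each panel, in the 6 keratin-rich clusters on the x axis, with blue points for the library labelled wild type and red points for that labelled knockout. Bars are exact 95% Poisson intervals. Ezh2 peaks in cluster 3 in both libraries at 103 and 105 CPM, whereas Pcgf5 in that cluster is at 60.1 and 33.2 CPM.

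The non-catalytic subunits of PRC2 were at or slightly above the wild-type level. Suz12, the scaffold of PRC2, was at 26.1 and 25.6 CPM, a log2 ratio of −0.03 (−0.12 to 0.07). Like Ezh2 it was highest in cluster 3, at 39.1 and 51.9 CPM, and it was at 17.2 and 16.6 CPM in cluster 1. Eed, which binds trimethylated H3K27 and stimulates the enzyme, was at 58.7 and 69.3 CPM, a ratio of 0.24 (0.18 to 0.30). The Eed ratio was −0.00093 without clusters 0, 4 and 6 and −0.01 with each cluster weighted equally. Eed was the other way round in cluster 3, at 73.9 and 53.6 CPM. The histone chaperones Rbbp4 and Rbbp7, which also serve other chromatin complexes, had the most UMIs of the 35 genes. Rbbp4 was at 127 and 156 CPM, a ratio of 0.29 (0.25 to 0.34), and Rbbp7 at 143 and 185 CPM, a ratio of 0.37 (0.34 to 0.41). Without clusters 0, 4 and 6 their ratios were 0.14 and 0.12. Each UMI is 1 captured 3′ end, so levels of different genes are not scaled by transcript length, though capture may differ between genes. Rbbp4 overlaps the annotated gene Sync, and Rbbp7 overlaps Txlng. The use of strand in counting is not given in the sources used here, so reads of overlapping genes cannot be told apart. Such an overlap was found for 18 of the 35 genes, among them Ezh2 with F830010H11Rik and Pcgf5 with Gm9042.

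The accessory subunits of PRC2 gave 2 different patterns. Mtf2, a Polycomb-like protein that brings PRC2 to CpG-rich DNA, was at 42.8 and 53.9 CPM, a log2 ratio of 0.33 (0.26 to 0.40). The Mtf2 ratio without clusters 0, 4 and 6 was −0.06. Jarid2 (chr13:44730774-44921643), which recruits PRC2 and binds nucleosomes with ubiquitylated H2A, was at 6.50 and 6.47 CPM, a ratio of −0.01 (−0.20 to 0.19). Within clusters each of the 5 with at least 19 cells per library had less of it in the library labelled knockout. It was at 6.48 and 3.16 CPM in cluster 0, a ratio of −1.04 (−2.06 to −0.17), and at 4.43 and 2.17 CPM in cluster 1, a ratio of −1.03 (−1.91 to −0.21). It was at 8.53 and 5.87 CPM in cluster 2, a ratio of −0.54 (−0.95 to −0.13). The levels thus differed within clusters and not in the sum over them. Most cells of the library labelled knockout lay in clusters 4 and 6, where its Jarid2 level was 8.51 and 7.33 CPM. With each cluster weighted equally the ratio was −0.85. In cluster 4 the levels were 19.7 and 8.51 CPM, a ratio of −1.21 (−1.91 to −0.43). The 28 cells of the library labelled wild type in cluster 4 carried more melanocyte RNA, with the melanocyte list summing to 4624 and 439 CPM, and its part in that value was not tested. Jarid2 had 31 UMIs and 1 UMI in cluster 3.

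Being lower in every 1 of these 5 clusters was common. It held for 7 of the 34 genes, namely Cbx7, Cbx8, Jarid2, Kmt2a, Pcgf5, Phc3 and Rnf2, and for 18.3% of all measured genes. Being higher in every cluster held for Kdm6b, Pcgf2, Phc2 and Rbbp7, which is 4 of 34 against 10.5% of all. Both shares of the members were near those of all genes.

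The RING subunits, which carry the H2A ubiquitin ligase activity of every PRC1, were at nearly equal levels in the sum over the keratin-rich cells. Ring1 was at 44.4 and 45.8 CPM, a log2 ratio of 0.05 (−0.03 to 0.12). Rnf2, also called RING1B, was at 32.5 and 33.7 CPM, a ratio of 0.05 (−0.03 to 0.14). Without clusters 0, 4 and 6 the ratios were −0.08 for Ring1 and −0.13 for Rnf2. As listed above, Rnf2 was lower in all 5 clusters with enough cells. Ring1 made up 57.8% and 57.6% of the UMIs of the pair.

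The PCGF paralogues, which define the PRC1 subtypes by pairing with a RING subunit, showed the largest difference among the 35 genes. Pcgf5 (chr19:36348329-36460970), of variant PRC1, had 2299 and 1090 UMIs, or 30.9 and 17.5 CPM, and was 1.77-fold lower in the library labelled knockout, a log2 ratio of −0.82 (−0.93 to −0.72). It was lower in each of the 5 clusters with enough cells, by little in cluster 0 (29.4 and 27.6 CPM) and most in cycling cluster 3. In cluster 3 it was at 60.1 and 33.2 CPM, a ratio of −0.86 (−1.37 to −0.38). In cluster 1 it was at 18.7 and 12.5 CPM, a ratio of −0.58 (−0.94 to −0.23). In cluster 2 it was at 29.8 and 26.3 CPM, a ratio of −0.18 (−0.38 to 0.02). Clusters 4 and 6, which hold most cells of the library labelled knockout, had low levels in that library, at 15.3 and 10.1 CPM. The ratio was −0.68 without cluster 3. With each cluster weighted equally it was −0.41, which is under 1.5-fold. Pcgf5 also followed the cycling cluster, where it stood 1.13 (0.98 to 1.28) and 0.95 (0.45 to 1.41) in log2 units above the other keratin-rich clusters. The part of the fewer cycling cells in its difference was not tested.

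The other PCGF genes differed less. Pcgf2, known as Mel18 and a subunit of canonical PRC1, was at 23.1 and 28.2 CPM, a log2 ratio of 0.29 (0.19 to 0.39). Its partner paralogue Bmi1, which supports self-renewal in many tissues, was at 6.78 and 8.17 CPM, a ratio of 0.27 (0.09 to 0.45). These are the canonical members, and both stood higher. Pcgf1, of the variant complex with Kdm2b, was at 6.78 and 8.38 CPM, a ratio of 0.31 (0.13 to 0.49), which was −0.18 with each cluster weighted equally. Pcgf6, found in a variant complex with E2F6, was at 21.4 and 23.3 CPM, a ratio of 0.13 (0.02 to 0.23). Pcgf3, the nearest relative of Pcgf5, was at 26.5 and 24.6 CPM, a ratio of −0.11 (−0.21 to −0.01). As a share of all PCGF UMIs, Pcgf5 was 26.8% (25.8 to 27.7) and 15.9% (15.02 to 16.8), and Pcgf2 was 19.99% and 25.6%. In cluster 3 the Pcgf5 share was 45.6% (42.6 to 48.7) and 27.5% (20.3 to 35.6).

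**Figure D3:**
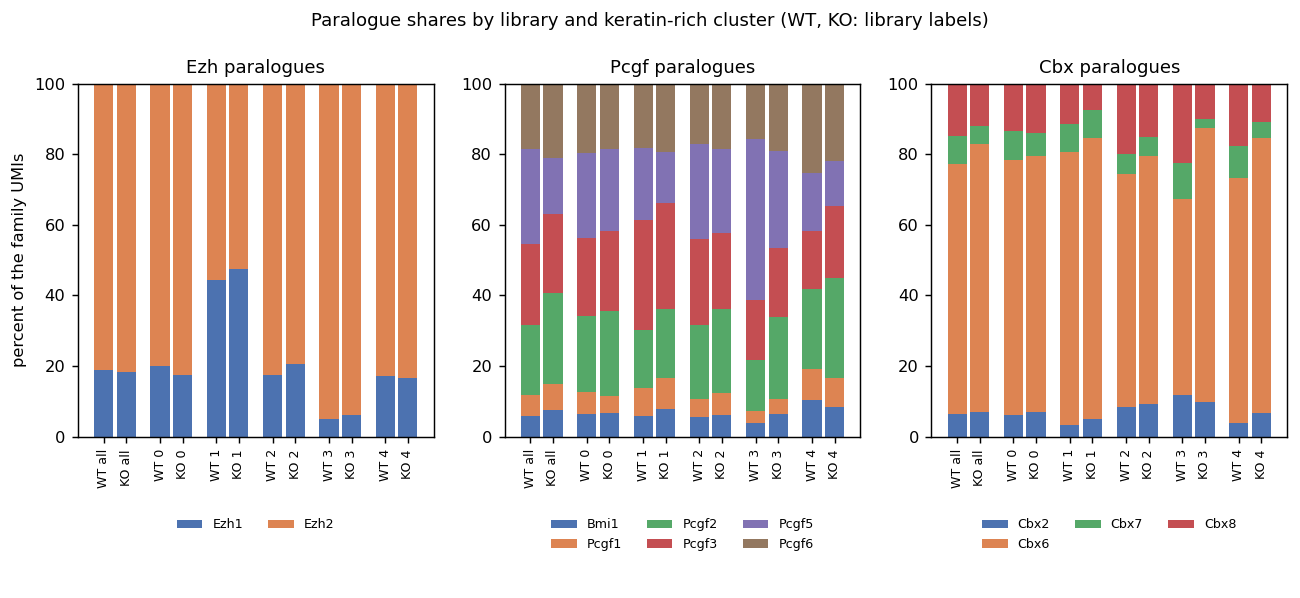
Share of each paralogue in the UMIs of its family, in percent on the y axis, in all keratin-rich clusters together and in clusters 0 to 4 on the x axis, with WT and KO for the library labels. Each colour is 1 paralogue of the Ezh, Pcgf or Cbx genes named. The Ezh1 share is 5.04% and 6.11% in cluster 3 and 44.3% and 47.6% in cluster 1, and the Pcgf5 share is 26.8% and 15.9% over all keratin-rich cells.

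The CBX proteins read H3K27 methylation within canonical PRC1. Cbx6 had the highest level of the 4, at 60.0 and 68.5 CPM, a log2 ratio of 0.19 (0.13 to 0.25), and made up 70.7% and 75.8% of their UMIs. Its direction turned with each cluster weighted equally, to −0.18, and without clusters 0, 4 and 6, to −0.03. Cbx7 (chr15:79915804-79971143), known for repression of the Cdkn2a locus and prominent in stem cells, had 502 and 283 UMIs, or 6.75 and 4.54 CPM, and a ratio of −0.57 (−0.79 to −0.36). At 1.49-fold it lay just short of the 1.5-fold limit, and it was lower in all 5 clusters, by −0.20 to −1.81. The −1.81 was in cluster 3, where the library labelled knockout had only 19 cells, with Cbx7 at 1.70 CPM. Cbx7 overlaps the annotated gene Apobec3. Cbx8 was at 12.6 and 10.9 CPM, a ratio of −0.20 (−0.35 to −0.06), and at 11.1 and 6.25 CPM in cluster 1, a ratio of −0.83 (−1.34 to −0.34). Without clusters 0, 4 and 6 its ratio was −0.66. Cbx2 was at 5.48 and 6.39 CPM, a ratio of 0.22 (0.02 to 0.43), which was −0.01 without clusters 0, 4 and 6.

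The polyhomeotic proteins polymerize canonical PRC1, and their shares differed between the libraries. Phc2 was at 37.2 and 48.0 CPM, a log2 ratio of 0.37 (0.29 to 0.44), and was higher in all 5 clusters. Phc1 was at 7.98 and 6.15 CPM, a ratio of −0.38 (−0.56 to −0.19), and was lower in 4 of the 5. In cluster 1 Phc1 was at 8.51 and 4.34 CPM, a ratio of −0.97 (−1.58 to −0.40), and in cluster 0 at 8.23 and 5.17 CPM. Phc3 was at 14.97 and 14.1 CPM, a ratio of −0.09 (−0.21 to 0.04). Phc2 thus made up 61.8% (60.4 to 63.3) and 70.3% (68.9 to 71.7) of PHC UMIs, and Phc1 13.3% and 9.00%.

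Among the adaptors of variant PRC1, Yaf2 had nearly all UMIs of Yaf2 and its homologue Rybp together. Rybp had only 14 and 7 UMIs, too few to read a balance of these genes, and the cause of its low count was not tested. Yaf2 was at 81.7 and 90.5 CPM, a log2 ratio of 0.15 (0.09 to 0.20). Kdm2b, which brings variant PRC1 to unmethylated CpG islands, was at 2.41 and 2.67 CPM, a ratio of 0.15 (−0.17 to 0.46), with 179 and 166 UMIs.

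The deubiquitinases that remove ubiquitin from H2A alongside Bap1 did not move in 1 direction. Usp16, which acts on H2A in mitosis and beyond, was at 56.6 and 47.4 CPM, a log2 ratio of −0.25 (−0.32 to −0.19). It was lower in 4 of the 5 clusters and higher in cluster 4, at 42.7 and 48.9 CPM. In cluster 4 the library labelled wild type had only 28 cells, which carried more melanocyte RNA. The part of this RNA in the Usp16 value was not tested. Usp16 overlaps Cct8, a chaperonin gene. Mysm1, known for its role in blood stem cells, was at 19.95 and 23.3 CPM, a ratio of 0.23 (0.12 to 0.33). Usp22, the ubiquitin protease of the SAGA coactivator, was at 40.6 and 43.8 CPM, a ratio of 0.11 (0.04 to 0.19). Usp16 made up 48.3% (47.3 to 49.4) and 41.4% (40.2 to 42.5) of the UMIs of these 3.

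The H3K27 demethylases had the highest ratios of the 35 genes. Kdm6b, an enzyme induced by stress and differentiation signals (chr11:69398508-69420367), was at 46.7 and 65.2 CPM, a log2 ratio of 0.48 (0.41 to 0.55). It was higher in all 5 clusters, with the clearest differences in cluster 1, at 35.2 and 49.8 CPM (0.50, 0.30 to 0.71), and cluster 4. In cluster 4 it was at 30.6 and 64.2 CPM, a ratio of 1.07 (0.53 to 1.66), with only 28 UMIs from the library labelled wild type. The cells of that library in cluster 4 carried more melanocyte RNA, with the melanocyte list at 4624 and 439 CPM. The part of this RNA in the cluster 4 ratios of Kdm6b and Kdm6a was not tested. With each cluster weighted equally the Kdm6b ratio was 0.15. In clusters 0, 2 and 3 its ratio was between 0.02 and 0.20. Kdm6a, the X-linked demethylase (chrX:18160862-18279936), was at 10.3 and 14.1 CPM, a ratio of 0.45 (0.31 to 0.59). The widest gap was in cluster 4, where Kdm6a had 8 and 511 UMIs, or 8.76 and 20.5 CPM, a ratio of 1.23 (0.24 to 2.45). Without clusters 0, 4 and 6 the Kdm6a ratio was −0.04. Its Y-linked homologue Uty was at 2.41 and 3.55 CPM, a ratio of 0.56 (0.27 to 0.85). Ddx3y, also Y-linked, was at 15.6 and 17.7 CPM, and Xist, transcribed from the inactive X, at 331 and 283 CPM. The share of male and female neonates in each pool is not given in the sources used here, and its part in the Kdm6a level was not tested.

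The 4 MLL methyltransferases lay between a log2 ratio of 0.02 and 0.25. Kmt2a was at 35.4 and 35.9 CPM, a ratio of 0.02 (−0.06 to 0.10), and in cluster 2 at 43.1 and 33.1 CPM, a ratio of −0.38 (−0.55 to −0.21). The Kmt2a ratio without clusters 0, 4 and 6 was −0.33. Kmt2b was at 11.1 and 13.2 CPM, a ratio of 0.25 (0.11 to 0.39). Kmt2c and Kmt2d, the enhancer H3K4 monomethyltransferases, were at 12.4 and 13.7 CPM (0.14, 0.01 to 0.28) and at 24.6 and 28.3 CPM (0.20, 0.10 to 0.30). The Kmt2d ratio was −0.02 with each cluster weighted equally.

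Counted cluster by cluster, few of the genes passed 1.5-fold. In cluster 0, Jarid2 and Phc1 were lower among 34 measured genes (14.0% of all genes there) and none was higher (3.54%). In cluster 1, Cbx8 and Phc1 were lower among 31 (8.36%) and none higher (4.57%). In cluster 2 none of 33 passed in either direction, against 13.7% lower and 4.37% higher of all genes. In cluster 3, Cbx8 and Pcgf5 were lower among 24 (13.5%), Cbx8 with 105 and 7 UMIs, and none was higher (5.25%). Cluster 4, with 28 and 692 cells, had 5 of 33 higher, namely Cbx2, Kdm6a, Kdm6b, Kmt2b and Kmt2c (9.82%), and 4 lower, namely Cbx7, Cbx8, Jarid2 and Phc3 (12.3%). Of these 9, the counting interval lay off 0 for Kdm6a, Kdm6b, Jarid2 and Phc3. The part that the melanocyte RNA in the 28 cells has in these cluster 4 counts was not tested.

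Genes of related complexes were read from companion lists. Of 11 genes of the Bap1 complex, all measured, Mbd5 was at least 1.5-fold higher, at 3.13 and 5.24 CPM, and none was lower, with a median log2 ratio of 0.23. The ratio was 0.48 (0.36 to 0.60) for Bap1 itself, 0.23 for Asxl1 and 0.36 for Asxl2, its activating partners. It was 0.06 for Foxk1 and 0.13 for Foxk2, which are DNA-binding partners, 0.18 for Hcfc1 and 0.19 for Ogt. No gene passed 1.5-fold in either direction among 17 further COMPASS and trithorax subunits (median 0.09), 13 other erasers and SAGA module genes (0.26), 10 genes of H2B ubiquitylation (0.16) and 22 SWI/SNF subunits (0.23). The background for these lists is that of all 13025 genes above. Among 16 measured genes of a list of E2F factors, pocket proteins and related factors such as Foxm1, 5 were lower and none higher, with a median of −0.34. The factors of this list control cell cycle genes. The largest ratios there were −2.36 for E2f7, −1.39 for Foxm1 and −1.31 for E2f8.

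Outside the keratin-rich clusters, 3 classes were named by their markers: melanocyte-like cells (22 and 56), Schwann-like cells (59 and 36) and myeloid-like cells (36 and 20). Cluster 5 (41 and 29 cells), led by Crabp1, Mcpt8 and Mmp3, was left unnamed. It held 8 skeletal muscle and 7 fibroblast markers at 5-fold or more, and its leading genes include the fibroblast markers Crabp1 and Twist2 but none of the muscle markers. These classes are small and their cells shallower, with median UMIs of 10993 and 10126 in the melanocyte-like cells against 37223 and 33585 over all cells. Krt14, which these cells should lack, was at 485 and 289 CPM in the melanocyte-like cells. Ratios below are to the keratin-rich cells of the same library. The genes named were picked with their values known, and no count is read from them.

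In the melanocyte-like cells Jarid2 was at 49.7 and 20.01 CPM, from 13 UMIs in each library, with log2 ratios of 2.93 and 1.63 over the keratin-rich cells. Cbx8 was at 26.7 and 27.7 CPM, from 7 and 18 UMIs, with ratios of 1.09 and 1.34, and Rbbp4 was at 195 and 242 CPM with ratios of 0.62 and 0.63. Cbx6 was at 30.6 and 30.8 CPM, with ratios of −0.97 and −1.16. Between the libraries, Jarid2 in this class had a ratio of −1.31 (−2.54 to −0.08), the same direction as in the 5 keratin-rich clusters with enough cells. In the Schwann-like cells Ezh2 was at 110 and 114 CPM, near its level in cycling cluster 3, with log2 ratios of 1.16 and 1.19, and Yaf2 was at 130 and 167 CPM, with ratios of 0.67 and 0.89. Cbx6 was at 26.9 and 25.2 CPM, with ratios of −1.16 and −1.44. The G2 and M phase list summed to 3211 and 3631 CPM in the Schwann-like cells and to 4026 and 1951 CPM in the melanocyte-like cells, where Ezh2 was at 111 and 69.2 CPM.

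In the myeloid-like cells the log2 ratio to the keratin-rich cells was itself low, with a median of −0.76 and −0.73 over all genes. These were genes with a mean of at least 20 CPM over the 2 classes and libraries. Ezh2 in the myeloid-like cells was at 20.5 and 11.2 CPM, from 16 and 4 UMIs, with log2 ratios of −1.27 and −2.16. Cbx6 was at 11.5 and 8.41 CPM, from 9 and 3 UMIs, with ratios of −2.38 and −3.03. Eed was at 66.5 and 78.5 CPM, near its keratin-rich level and so above that median. In cluster 5, Cbx6 was at 33.4 and 22.4 CPM, with ratios of −0.85 and −1.61, and Kdm6b at 24.4 and 28.6 CPM, with ratios of −0.94 and −1.19. Between libraries in cluster 5, Rnf2 was at 33.4 and 12.4 CPM, a ratio of −1.42 (−2.59 to −0.40), from 41 and 10 UMIs. Rbbp4 in cluster 5 was at 155 and 194 CPM, a ratio of 0.32 (0.01 to 0.63).

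**Figure D4:**
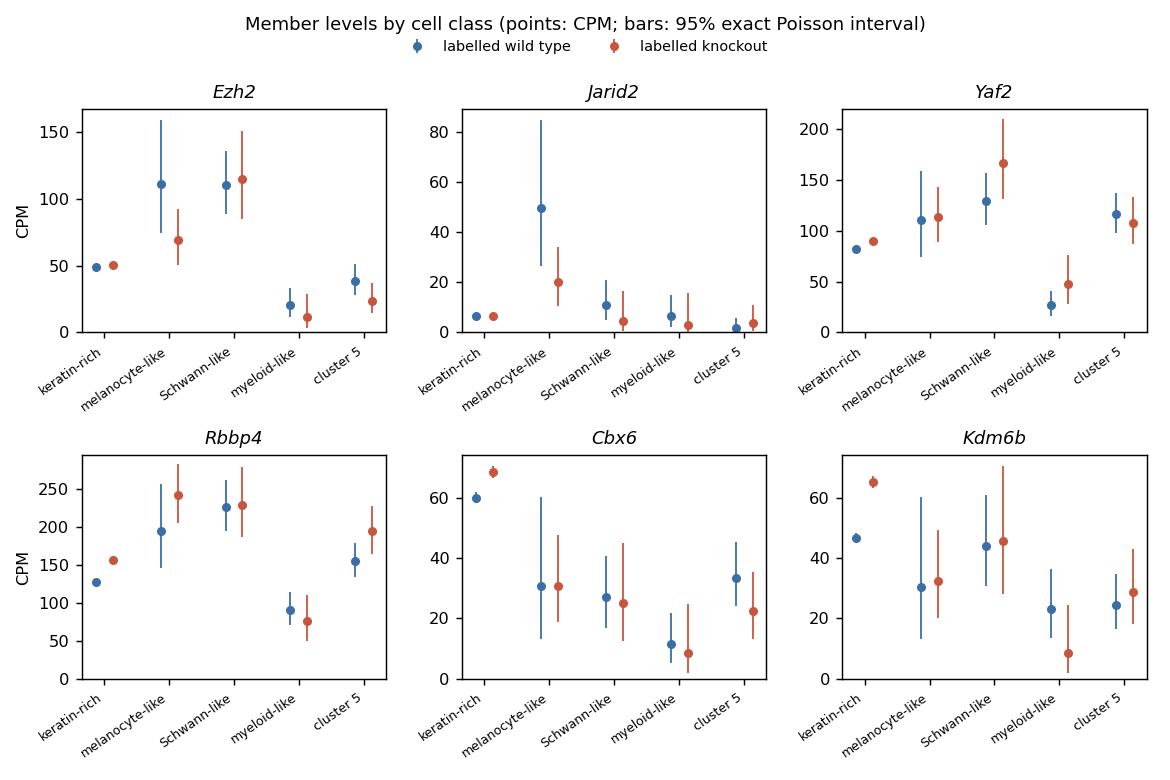
CPM of 6 genes, on the y axis of each panel, in the keratin-rich clusters and 4 other classes on the x axis, with blue points for the library labelled wild type and red for that labelled knockout. Bars are exact 95% Poisson intervals. Jarid2 is highest in melanocyte-like cells at 49.7 and 20.01 CPM, and Ezh2 is at 110 and 114 CPM in Schwann-like cells and at 20.5 and 11.2 CPM in myeloid-like cells.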

How the data were processed

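The authors deposited UMI count tables, genes by cells, 1 for each library, and these whole numbers were used as deposited. Cell Ranger 2.1, Seurat 2.0 and mm10 are named per the submitters' processing notes, without the role of each. Of 36528 NCBI gene identifiers, 31049 matched a RefSeq symbol of GRCm38.p6, and the 5479 without a match, with 2.67% of UMIs, counted only toward totals. Cells with at least 500 genes and at most 10% mitochondrial UMIs were kept, which removed 13 and 16. Scrublet marked 1 and 7 doublets (0.0519% and 0.398%), so few that it can hardly have worked. The shallowest deposited cell had 10065 and 8776 UMIs.

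Cells of both libraries were clustered together with scanpy 1.11.5 (2000 variable genes, 30 components, 15 neighbours, Leiden resolution 0.5). A class name needed at least 3 of its markers at 5-fold over the mean of the other clusters, outnumbering those of each rival set. A cluster led by a set other than the 3 named or the keratinocyte sets stayed unnamed. The names are rebuilt, not the authors'. UMIs were summed per class and library and scaled to CPM. Intervals are exact Poisson for sums, conditional exact for ratios and Clopper-Pearson for shares (scipy 1.17.1). The ratio steps were tested on simulated counts. A gene was measured from 100 UMIs over both libraries.

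All members are named. From each list whose genes past 1.5-fold are counted, up to 3 measured genes with the largest ratios past that limit are named, and Bap1, Asxl1, Asxl2, Foxk1, Foxk2, Hcfc1, Ogt, Mki67, Top2a, Xist, Ddx3y and Uty were fixed by name. Marker lists are given by their sums. Members and lists were chosen with earlier results of these data known. Alternatives covered the cell filters, doublets, cluster resolution, weights, depth, the UMI minimum and the fold limit. Results of other companion lists are not reported here.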

Additional observations from a re-analysis of the deposited data

Results flagged for a closer look

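For Cbx6 and Eed the ratio between the libraries, as log2 of the library labelled knockout over that labelled wild type, had opposite directions in different clusters, with counting intervals off 0 on both sides. Cbx6 was 0.51 (0.06 to 0.93) in cycling cluster 3 and −0.18 (−0.34 to −0.02) in cluster 1. Eed was 0.25 (0.05 to 0.45) in cluster 0 and 0.24 (0.06 to 0.42) in cluster 1, but −0.46 (−0.86 to −0.09) in cluster 3 and −0.79 (−1.41 to −0.21) in cluster 5. The difference between clusters was not tested, since each library is a single sample.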

How the results depend on the processing

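The count of genes at least 1.5-fold lower was 1 (Pcgf5). It was 2 with at most 5% mitochondrial UMIs and with each cell thinned to 8000 UMIs (Cbx7 and Pcgf5), 2 with each cluster weighted equally (Cbx7 and Jarid2, without Pcgf5) and 2 with a minimum of 20 UMIs (Pcgf5 and Rybp). Without clusters 0, 4 and 6, an alternative chosen after seeing the data, it was 3 (Cbx8, Pcgf5 and Phc1). It was 0 with a limit of 2-fold and 3 with the looser of the fold limits (Cbx7, Pcgf5 and Phc1). The count of genes higher was 0 and became 5 at that looser limit (Kdm6a, Kdm6b, Mtf2, Phc2 and Rbbp7). The cause of these shifts was not tested, other than the limits themselves. The share of all measured genes was taken only at 1.5-fold under the main settings. Whether the counts at the other limits and settings are more or fewer than among all genes was therefore not tested. Under 13 alternatives for each gene, 18 of the 34 measured genes had the same sign throughout and 16 had another sign at least once, among them Ezh2 and Kdm6a. Over all 35 genes, Rybp included, 393 values stayed within the counting interval and 62 left it. Leaving out the 6 cells with shared barcodes changed neither count. The median of all genes shifted by at most 0.063. Without clusters 0, 4 and 6 the log2 ratio was 0.03 for Yaf2, 0.02 for Mysm1 and 0.04 for Kmt2b. No paired analysis was possible because each genotype has 1 library. Depth limits the small classes most: Jarid2 rests on 13 UMIs in the melanocyte-like cells of each library.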

Other observations

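The balance of the RING pair and of the H2A deubiquitinases also varied between cell classes. Ring1 made up 81.0% (58.1 to 94.6) and 71.7% (58.6 to 82.5) of Ring1 and Rnf2 UMIs in the melanocyte-like cells, and 69.7% (58.1 to 79.8) and 82.9% (67.9 to 92.8) in the Schwann-like cells. In the keratin-rich cells it was 57.8% and 57.6%. Mysm1 made up 9 of 18 UMIs and 34.4% (22.7 to 47.7) of the UMIs of Usp16, Mysm1 and Usp22 in the melanocyte-like cells, against 17.0% and 20.4% in the keratin-rich cells. Within the MLL family, the Kmt2c share in the Schwann-like cells was 21.7% (12.1 to 34.2) and 45.5% (28.1 to 63.6), against 14.9% and 15.1% in the keratin-rich cells. These shares were picked after their values were seen, and no difference was tested.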
